A study of Mus musculus with 4 samples.

Results

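The genes described here are 9 genes of fatty acid and triglyceride synthesis (Srebf1, Thrsp, Acly, Acaca, Acacb, Fasn, Elovl6, Scd1 and Gpam) together with Pnpla3, which encodes a protein of the lipid droplet surface. They were found through the RefSeq accession of each array probe, which gave 13 probes of the 41174 on the array, 3 of them for Acaca and 2 for Fasn. All 13 passed the filter on dim probes, so all 10 genes are among the 25115 genes tested. A gene symbol was found for 14084 of the 25115. The rest are accessions without a symbol, each counted as a gene, so a gene can count more than once in the shares and ranks below. The arrays measured liver RNA of female CD-1 mice, an outbred stock, aged 8 weeks, in which the homeobox transcription factor Cux2 had been knocked down with siRNA, and the stated purpose was to find genes that respond to it. Each of the 4 arrays set 1 pool of Cux2 siRNA livers against 1 pool of livers from mice that had received a non-specific siRNA. The pools of day 5 after treatment held 3 mice (replicate 1) and 2 mice (replicate 2), and both pools of day 8 held 2 mice. The control livers came from 13 mice in 2 pools of 6 or 7 per the series text, whereas each sample's own label counts 6. The same 2 control pools served both days, and the labels do not say which array carried which. The dyes were exchanged between replicates: the treated pool carried Alexa 647 (red) in replicate 1 and Alexa 555 (green) in replicate 2. Every value below is a log2 ratio of Cux2 siRNA over non-specific siRNA, so 1 on this scale is a doubling, and a gene passed when its Benjamini-Hochberg adjusted p over all genes tested was under 0.05 in limma.

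Hepatocytes make fatty acids from citrate that leaves the mitochondria. ATP citrate lyase (Acly) cleaves it to acetyl-CoA, the acetyl-CoA carboxylases (Acaca in the cytosol, Acacb at the outer mitochondrial membrane) turn that into malonyl-CoA, and fatty acid synthase (Fasn) builds palmitate. Elovl6 lengthens palmitate to stearate, Scd1 places a double bond in it, and Gpam, the mitochondrial glycerol-3-phosphate acyltransferase, begins the assembly of triglyceride. Srebf1 encodes SREBP-1, the transcription factor that drives many of these genes after feeding and insulin, and Thrsp (Spot 14) is a small protein that rises with lipogenesis. Pnpla3 is itself a known SREBP-1c target, and its protein, a relative of the triglyceride lipase Pnpla2, is best known for a human variant linked to fatty liver.

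The sequence just upstream of the start of transcription was available in RefSeq's GRCm38.p6 annotation for 9 of the 10 genes, in 12 windows, since some genes have several starts. Shown here, 5' to 3' on the gene's strand, are the stretches that lie outside annotated transcripts for the 3 genes that rose and have one (Pnpla3, Elovl6 and Thrsp) and, for contrast, for Acly, which did not pass. Capitals mark each CCAAT box (CCAAT or its reverse complement ATTGG) and each GC box (GGGCGG or CCGCCC).
Pnpla3, chr15:84167566-84167775, plus strand: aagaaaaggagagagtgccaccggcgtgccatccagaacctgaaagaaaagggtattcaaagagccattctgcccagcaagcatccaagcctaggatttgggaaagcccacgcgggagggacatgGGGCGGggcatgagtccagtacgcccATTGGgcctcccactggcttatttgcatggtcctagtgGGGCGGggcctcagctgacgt
Elovl6, chr3:129532136-129532385, plus strand: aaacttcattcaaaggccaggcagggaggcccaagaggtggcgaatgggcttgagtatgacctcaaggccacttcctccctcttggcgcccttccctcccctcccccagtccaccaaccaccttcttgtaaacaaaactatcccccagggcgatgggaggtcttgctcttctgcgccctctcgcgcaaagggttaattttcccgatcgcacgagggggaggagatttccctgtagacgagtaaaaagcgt
Thrsp, chr7:97417551-97417800, minus strand: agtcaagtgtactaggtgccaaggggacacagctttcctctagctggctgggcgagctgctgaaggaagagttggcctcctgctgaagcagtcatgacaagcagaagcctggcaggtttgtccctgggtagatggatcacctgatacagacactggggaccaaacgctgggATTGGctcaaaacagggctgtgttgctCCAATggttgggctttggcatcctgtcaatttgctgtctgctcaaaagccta
Acly, chr11:100528001-100528250, minus strand: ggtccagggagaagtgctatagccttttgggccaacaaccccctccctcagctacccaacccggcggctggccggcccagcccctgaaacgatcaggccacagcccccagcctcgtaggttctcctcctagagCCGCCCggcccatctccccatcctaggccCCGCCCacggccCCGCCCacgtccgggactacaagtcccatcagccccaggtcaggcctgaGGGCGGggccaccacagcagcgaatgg
For Fasn, where the annotated gene reaches further upstream than the start used here, 30 bases around a pair of CCAAT boxes that overlap by 2 bases, on opposite strands, are given.
Fasn, chr11:120824591-120824620, minus strand: ggcctcggtgtCCAATTGGtttcgatgtgg
The Pnpla3 stretch ends 41 bases before the start, and holds 2 GC boxes with an inverted CCAAT box between them. Thrsp has 2 CCAAT boxes within 79 bases of its start and no GC box, Acly has 4 GC boxes and no CCAAT box, and the Elovl6 window has neither. In the 250 bases before the start, on both strands, a CCAAT box was present in 7 of the 12 windows of these genes and in 33.8% of all 32851 windows of the annotation. A GC box was present in 5 of the 12 and in 32.7% of all. None of the 12 windows held the E-box CACGTG (6.02% of all windows), the sterol regulatory element TCACNCCAC (1.05%), the liver X receptor element (0.0639%) or ATCGAT, a core bound by Cut homeodomain proteins (0.728%). TATAAA was found in Acacb alone, against 12.4% of all windows. These are matches of letters in a short window and say nothing of binding.

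Cux2 itself was at 28.6% of the control level at day 5 and 45.6% at day 8 (limma, adjusted p = 0.00303 and 0.00709) and was lower on all 4 arrays. On each array 71.2% to 74.6% of probes were well above background, and all 4 arrays lay on 1 slide. Day 8 replicate 2 had 204 spots marked as outliers, and the other arrays 99 to 116. Their number limits the precision. No spot of the 10 genes was saturated or marked as an outlier. For the marker counts that follow, 14.8% of all genes tested rose and 16.3% fell over both days. The liver label is borne out by its markers: the 9 hepatocyte markers tested (Alb, Hnf4a and others) had a summed brightness of 1010180 to 1585060 in every pool, and of the 9, Hnf4a rose and Apob and Ttr fell over both days. Without any 1 array 1 of the 9 fell, and without day 5 replicate 2 or day 8 replicate 1 none rose. Hnf4a was lost without day 8 replicate 2 too, where Cyp2e1 rose instead. Of 7 adipocyte markers tested, 0 rose and 3 fell (Adipoq, Cfd and Fabp4), and their summed brightness was 6380 to 7099 in the treated and 9370 to 10380 in the control pools. The eighth on the array, Lep, was below background. Of 8 macrophage markers 0 rose and 6 fell, with a sum of 33790 to 41717 against 54631 to 58930. The 6 became 0 with median centring of each array and 7 with the replicate number added to the fit. It was 4 without day 5 replicate 2, day 8 replicate 2 or background subtraction, and with the processed signals. The adipocyte markers that fell numbered 0 with median centring, 5 with the replicate number, and 2 without either array of day 8. The 11 exocrine pancreas markers had a median log2 ratio of -3.05, -4.13 and -3.78 on day 5 replicate 1, day 5 replicate 2 and day 8 replicate 2, but 0.51 on day 8 replicate 1, so that array stands apart. Their summed brightness was 2336 to 29656 in the treated and 19001 to 58164 in the control pools. Of the 11, 5 fell over both days, a count that became 1 and 0 when replicate 1 or replicate 2 of day 5 was dropped, 11 and 9 when replicate 1 or replicate 2 of day 8 was, and 0 without background subtraction or with the processed signals. In such whole-tissue RNA, fewer cells of a type and less RNA per cell cannot be told apart, and the part that these cell types play in the values below was not tested.

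Over both days, 5 of the 10 genes rose and 0 fell: Pnpla3 (3.32-fold), Elovl6 (2.09-fold), Fasn (1.64-fold), Srebf1 (1.32-fold) and Thrsp (1.29-fold). Acly, Acaca, Acacb, Gpam and Scd1 did not pass. Calls were common on these arrays: 31.0% of all genes tested passed over both days, 14.8% as higher and 16.3% as lower. At day 5 the same 5 genes passed, all higher, against 16.8% of all genes (7.37% higher and 9.40% lower). At day 8 it was 3, Pnpla3, Fasn and Thrsp, against 14.3% (6.27% higher and 8.02% lower). The median of the 10 genes was 0.31 at day 5, 0.22 at day 8 and 0.23 over both, where the median of all genes was 0.00. By array, 9 of the 10 ratios were above 0 on day 5 replicate 1, 7 on day 5 replicate 2, 7 on day 8 replicate 1 and 6 on day 8 replicate 2. The count over both days was 4 without day 5 replicate 2 and without day 8 replicate 2, with Srebf1 lost each time, and 5 without either of the others. The single-day counts were much less steady: at day 5, 1 gene was left when replicate 1 of that day was dropped, 0 when its replicate 2 was, and 3 when either day 8 array was, and at day 8 it was 1 (Pnpla3) without any 1 of the 4. With median centring of each array in place of loess, 2 of the 10 passed over both days (Pnpla3 and Elovl6) and 0 on either day. That setting left 269 calls among all genes, 32.3% of them higher, against 7796, 47.6% of them higher.

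**Figure D1:**
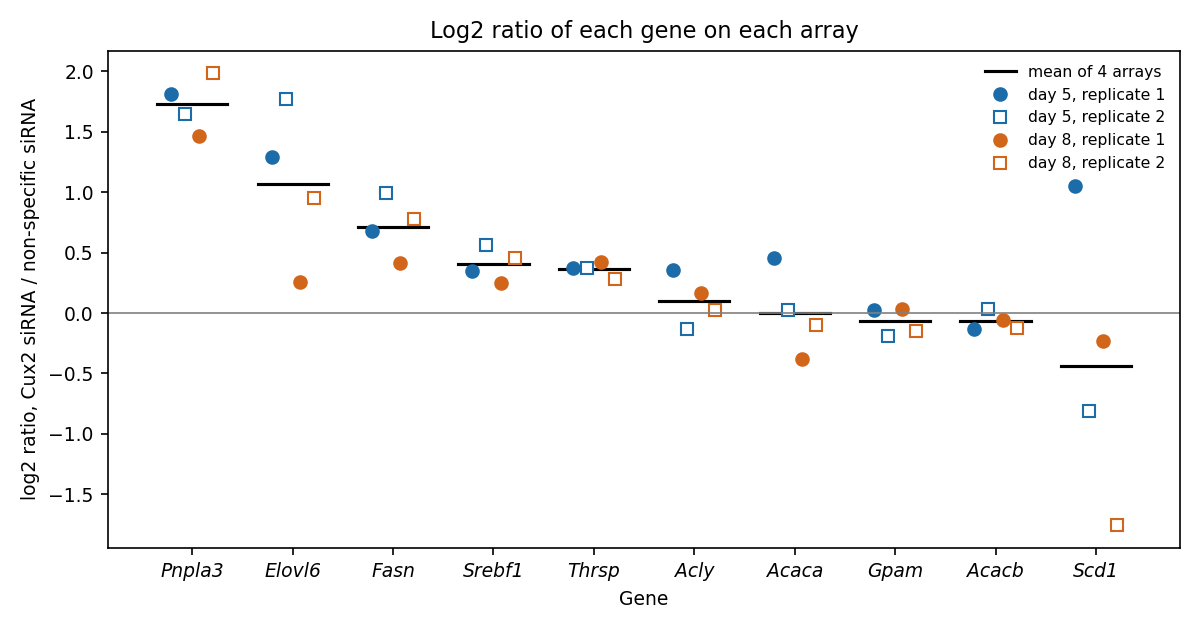
The log2 ratio of Cux2 siRNA over non-specific siRNA (y axis) for each of the 10 genes (x axis), 1 point per array: blue for day 5, orange for day 8, filled circles for replicate 1 and open squares for replicate 2, with a bar at the mean of the 4. Pnpla3, Elovl6, Fasn, Srebf1 and Thrsp lie above 0 on all 4 arrays (with median centring, Srebf1 and Thrsp do so on replicate 1 only), while Scd1 runs from 1.05 down to -1.76.

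Pnpla3 had the largest ratio of the 10. Its log2 ratios were 1.81 and 1.65 on replicates 1 and 2 of day 5, and 1.47 and 1.98 on those of day 8. All 4 were far above 0 and the days overlapped. The brightness of the treated over the control pool was 8512 over 2423, 5291 over 1684, 6144 over 2219 and 6991 over 1767, in the same order, so no treated value overlapped any control value. The gene rose 3.32-fold at day 5 (log2 1.73, SE 0.14, limma adjusted p = 0.00672), 3.31-fold at day 8 (log2 1.73, SE 0.14, limma adjusted p = 0.00794) and 3.32-fold over both (95% interval 2.77 to 3.96, limma adjusted p = 0.00148). This placed it 29th from the top of the 25115 genes at day 5, 19th at day 8 and 25th over both. The day 8 ratio minus the day 5 ratio was -0.01 (95% interval -0.52 to 0.51). The call over both days held in all 15 alternatives tried. At day 5 it was lost without day 5 replicate 2 (limma adjusted p = 0.0559) and with median centring (0.147), and at day 8 with median centring (0.181).

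**Figure D2:**
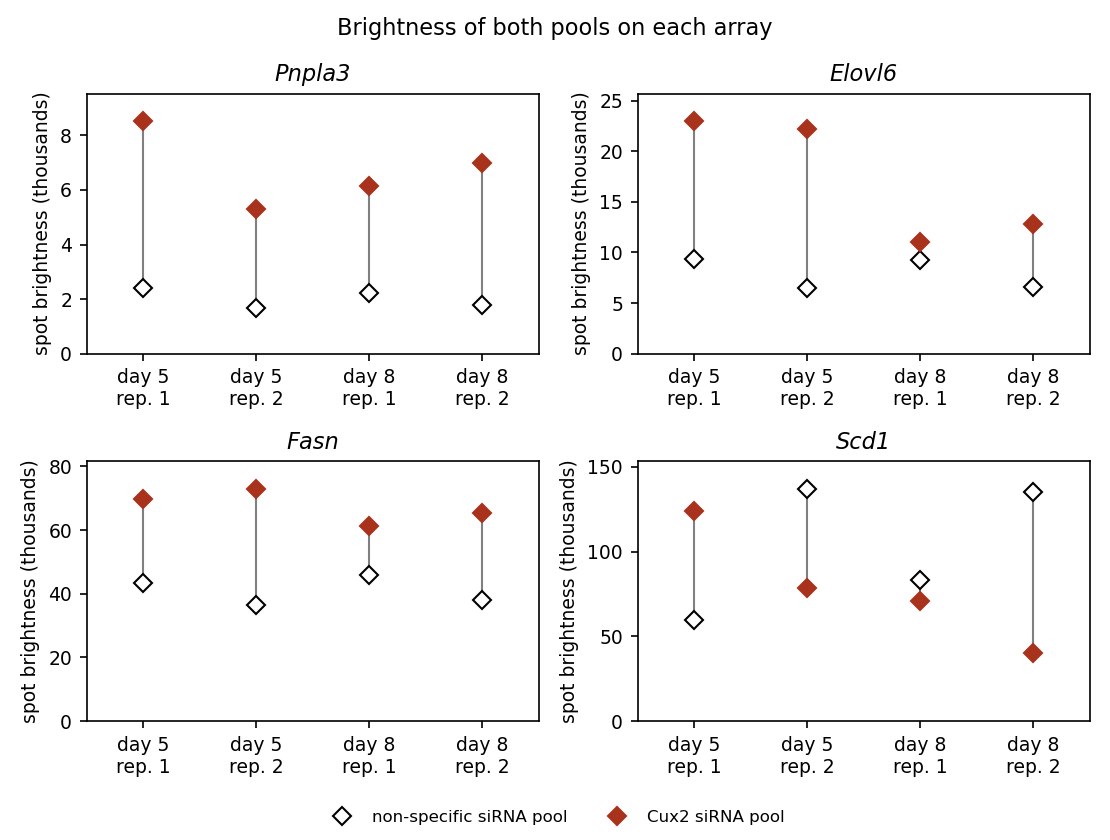
Spot brightness in scanner units, scaled as the axis states, after background correction and loess (y axis, from 0) of the Cux2 siRNA pool (filled diamonds) and the non-specific siRNA pool (open diamonds) on each array (x axis), for Pnpla3, Elovl6, Fasn and Scd1, each on its own scale. The filled diamond is above the open one on all 4 arrays for the first 3 genes, and on day 5 replicate 1 alone for Scd1.

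Among the regulators, Srebf1 was modestly higher. Its log2 ratios were 0.35 and 0.56 at day 5 and 0.25 and 0.46 at day 8, positive on all 4 arrays and with the days overlapping, though median centring put both replicate 2 arrays just below 0 (-0.02 and -0.09). The treated pools had a brightness of 49933 to 63790 and the control pools of 41944 to 45206. It rose 1.37-fold at day 5 (log2 0.46, SE 0.09, limma adjusted p = 0.0392) and 1.32-fold over both days (log2 0.40, SE 0.07, limma adjusted p = 0.0133), while at day 8 the 1.28-fold difference did not pass (0.0746). Its call over both days held in 10 of 15 alternatives; it was lost without day 5 replicate 2 (limma adjusted p = 0.0616), without day 8 replicate 2 (0.0572), with the scanner's processed signals or the authors' deposited ratios (0.0594 each) and with median centring (0.538). The day 5 call held in 5 of 16 alternatives and was lost without any 1 array, with limma adjusted p = 0.108 when replicate 1 of that day was dropped, 0.266 for its replicate 2 and 0.0505 for either array of day 8. The position of the single probe in the SREBP-1a and SREBP-1c transcripts was not checked, so the 2 are not told apart here.

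Thrsp had the narrowest range over the 4 arrays of the 5 genes that rose. Its log2 ratios were 0.37 and 0.37 at day 5 and 0.42 and 0.28 at day 8, all above 0, whereas median centring put both replicate 2 arrays below 0 (-0.28 and -0.34). Treated pools lay at 127067 to 137610 and control pools at 100363 to 106273, without overlap. It rose 1.29-fold at day 5 (log2 0.37, SE 0.07, limma adjusted p = 0.0341), 1.28-fold at day 8 (log2 0.35, SE 0.07, limma adjusted p = 0.0427) and 1.29-fold over both (log2 0.36, SE 0.05, limma adjusted p = 0.00913). The call over both days was lost with median centring (limma adjusted p = 0.737) and with an intensity trend in the variance (0.0510). Each single-day call held in 6 of 16 alternatives and was lost without any 1 array: at day 5 the adjusted p in limma was 0.187 when replicate 1 of that day was dropped, 0.220 for its replicate 2 and 0.0517 for either array of day 8, and at day 8 it was 0.229 for replicate 1 of that day, 0.167 for its replicate 2 and 0.0862 for either array of day 5.

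Of 15 other genes that control lipogenic transcription, 1 rose and 5 fell over both days, with a median of -0.19. Over all genes tested, 14.8% rose and 16.3% fell. Mlx, the partner of the carbohydrate sensor ChREBP, was 0.32 higher, whereas ChREBP itself (Mlxipl) was at 0.13 and did not pass. The escort protein that carries SREBP to the Golgi, Scap, fell by 0.41 (SE 0.05, limma adjusted p = 0.00705) with log2 ratios between -0.48 and -0.31 on the 4 arrays. The retention factor Insig2 (-0.69), the liver X receptor Nr1h2 (-0.44), its partner Rxra (-0.31) and the coactivator Ppargc1b (-0.34) also fell. Insig1 (0.20), Srebf2 (0.18) and Nr1h3 (-0.22) did not pass. The counts were not steady: with the processed signals or the authors' deposited ratios 1 rose and 1 fell, and without background subtraction 0 rose and 2 fell. Among the single arrays, 0 rose without day 5 replicate 1, day 5 replicate 2 or day 8 replicate 1, and 3, 1, 5 and 3 fell without day 5 replicate 1, day 5 replicate 2, day 8 replicate 1 and day 8 replicate 2.

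Acly, Acaca and Acacb did not pass on either day. Acly had log2 ratios of 0.36 and -0.14 at day 5 and 0.17 and 0.02 at day 8, with 3 arrays above 0 and 1 below. The mean over both days was 0.10 (95% interval -0.14 to 0.35, limma adjusted p = 0.477), and day 5 (0.11, limma adjusted p = 0.634) and day 8 (0.09, limma adjusted p = 0.694) each missed the threshold. Acaca gave 0.46 and 0.03 at day 5 but -0.38 and -0.10 at day 8 on its brightest probe, so the days lay on opposite sides of 0. Neither day passed (0.24 and -0.24, limma adjusted p = 0.288 and 0.305), and the mean of both was 0.00. The other 2 Acaca probes gave 0.02, 0.08, -0.04 and -0.03, and 0.19, 0.35, 0.32 and -0.03, and none of the 3 passed over the 31787 probes. Acacb was close to background, with 1 of 4 treated and 3 of 4 control readings well above it. Its ratios of -0.13, 0.03, -0.06 and -0.12 averaged -0.07 (95% interval -0.21 to 0.07, limma adjusted p = 0.388). With the scanner's processed signals the ratios were -0.61, 0.29, -0.57 and -0.89. The mean over both days reached -0.45 among the alternatives, outside that interval. The interval therefore does not bound the change of so dim a probe, and a small change was not detectable here.

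Fasn was higher in both probes. The brighter probe had log2 ratios of 0.68 and 0.99 at day 5 and 0.41 and 0.78 at day 8, the other 0.65 and 0.77 at day 5 and 0.32 and 0.46 at day 8. All 8 were above 0, and in both probes day 8 replicate 1 was the lowest. On the brighter probe the treated pools lay at 61224 to 72955 and the control pools at 36631 to 45987, with no overlap. Fasn rose 1.79-fold at day 5 (log2 0.84, SE 0.13, limma adjusted p = 0.0196), 1.51-fold at day 8 (log2 0.59, SE 0.13, limma adjusted p = 0.0457) and 1.64-fold over both days (95% interval 1.40 to 1.93, limma adjusted p = 0.00673). Tested as a probe among all probes, the dimmer one passed as well (log2 0.55 over both days, limma adjusted p = 0.00359). The call over both days was lost in 1 of 15 alternatives, median centring (limma adjusted p = 0.213). At day 5 it was lost in 6 of 16: without day 5 replicate 1 (limma adjusted p = 0.0629) or replicate 2 (0.144), without background subtraction (0.0561), with the processed signals (0.0969), the authors' deposited ratios (0.0971) and median centring (0.524). At day 8 it held in 5 of 16, and was lost among others when replicate 1 of that day (0.0800), its replicate 2 (0.270) or either array of day 5 (0.0564) was dropped.

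Of 14 other genes of acetyl-CoA, NADPH and glycolytic supply, 3 rose and 2 fell over both days (median 0.10). The shares over all genes were 14.8% and 16.3%. Pdk4, which switches off pyruvate dehydrogenase, was 0.89 higher and the NADPH-forming isocitrate dehydrogenase Idh1 0.63 higher. G6pdx, the entry enzyme of the pentose phosphate pathway, fell by 0.91 (SE 0.08, limma adjusted p = 0.00345), and the pyruvate carboxylase Pcx fell by 0.30. The malic enzyme Me1 was at 0.31 and narrowly missed the threshold (limma adjusted p = 0.0534). Without day 5 replicate 1, day 8 replicate 1 or day 8 replicate 2, Pcx was lost and 1 gene fell, as it did without background subtraction and with the processed signals.

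Elovl6 was the most changed enzyme of fatty acid synthesis and differed most between arrays among the 5 that rose. Its log2 ratios were 1.29 and 1.77 at day 5 and 0.25 and 0.95 at day 8. Both day 5 values lay above both day 8 values, and day 8 replicate 1 was the lowest of the 4. The brightness of treated over control was 22939 over 9383 and 22232 over 6515 at day 5, and 11016 over 9238 and 12798 over 6631 at day 8. Elovl6 rose 2.89-fold at day 5 (log2 1.53, SE 0.20, limma adjusted p = 0.0155) and 2.09-fold over both days (log2 1.07, SE 0.14, limma adjusted p = 0.00808). At day 8 the 1.52-fold difference did not pass (log2 0.60, 95% interval 0.07 to 1.13, limma adjusted p = 0.126). The difference between the days was -0.93 (SE 0.29), which did not pass (limma adjusted p = 1.00; unadjusted 0.0251). The call over both days held in all 15 alternatives. The day 5 call was lost without day 5 replicate 1 (limma adjusted p = 0.0516), without day 5 replicate 2 (0.111), without background subtraction (0.0522) and with median centring (0.133).

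With loess, the lowest ratio of Pnpla3, Elovl6, Fasn and Srebf1 was in each case on day 8 replicate 1, the array on which the pancreas markers stood apart. With median centring it was on day 5 replicate 2 for Pnpla3 (1.29). It was then on day 8 replicate 2 for Elovl6 (0.56), Fasn (0.24) and Srebf1 (-0.09). For Thrsp the highest ratio was on day 8 replicate 1 either way. Without it, all 5 genes still passed over both days, and Elovl6 at day 8 was at 0.95 (limma adjusted p = 0.0864).

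Scd1, the delta-9 desaturase, was among the brightest spots on the array and did not pass in either direction unless the replicate number was added to the fit. Its log2 ratios were 1.05 and -0.81 at day 5 and -0.23 and -1.76 at day 8. The replicates of each day therefore disagreed, with the higher ratio on replicate 1 both times. The brightness of treated over control was 123811 over 59763, 78260 over 136949, 70639 over 82976 and 39917 over 134913. Neither day passed (0.12, SE 0.55, limma adjusted p = 0.911 at day 5; -0.99, limma adjusted p = 0.301 at day 8), and the mean over both was -0.44 (95% interval -1.46 to 0.59, limma adjusted p = 0.463). Without day 5 replicate 2 that mean was 0.03. With the replicate number, which is also the dye orientation, as a block, Scd1 passed as lower over both days (-0.44, limma adjusted p = 0.00423) and at day 8 (-0.99, limma adjusted p = 0.00256). In that fit 11255 of the 25115 genes tested passed over both days, against 7796 without the block. The block also leaves fewer residual degrees of freedom than the main fit.

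Read by dye, the red channel of Scd1 was the brighter on 3 of 4 arrays, by 1.05, 0.81 and 1.76 on the log2 scale, and the dimmer by 0.23 on day 8 replicate 1. The gap between replicate 1 and replicate 2, which have opposite dyes, was 1.69 for Scd1 and larger than that of 99.7% of all genes tested. Scd1 had a mean log2 brightness of 16.4. The median gap was 0.31 over the 233 genes around that brightness (mean 16.5), with a 95th percentile of 0.84, which the gap of Scd1 exceeded. Over the 120 brightest genes (mean 17.4) the median gap was 0.93 and the 95th percentile 1.63, and in all dimmer groups the median lay between -0.08 and 0.05. The part that the dyes play in the Scd1 values was not tested. Albumin, the brightest marker, had the red channel higher on all 4 arrays and a gap of 1.57. Thrsp, at 16.8, had a gap of 0.07. The gap was -0.59 for Elovl6, -0.34 for Fasn and -0.21 for Srebf1, whose ratios were higher on replicate 2 (treated pool in green) on both days. For Pnpla3 it averaged -0.18, with the higher ratio on replicate 1 at day 5 and on replicate 2 at day 8. With median centring in place of loess, replicate 1 had the higher ratio on both days for Elovl6, Fasn, Srebf1, Thrsp and Pnpla3. The ratios of Fasn on replicates 1 and 2 were then 1.28 and 0.41 at day 5, and 1.02 and 0.24 at day 8. Those of Thrsp were 1.07 and -0.28 at day 5, and 1.15 and -0.34 at day 8. The sign and size of these gaps therefore depend on the normalization.

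**Figure D3:**
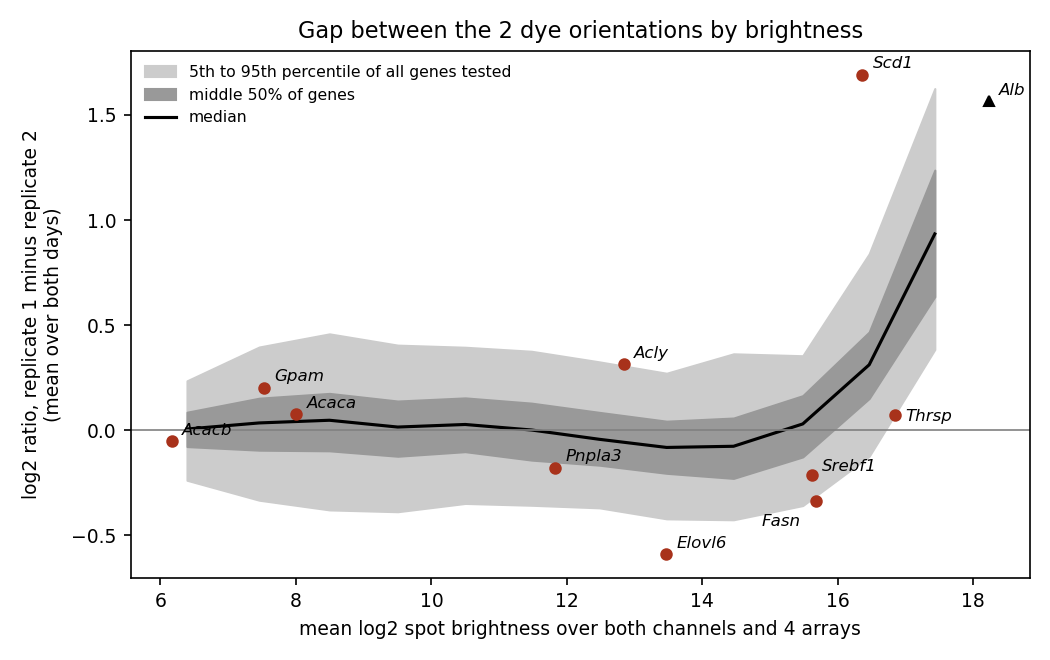
The gap between dye orientations, as the log2 ratio of replicate 1 minus replicate 2 averaged over both days (y axis), against mean log2 spot brightness (x axis), with the 10 genes as red points, Alb as a black triangle, and bands for the middle 50% and the 5th to 95th percentile of all genes tested around their median. The median stays near 0 and rises to 0.93 among the brightest genes; Scd1, at 1.69, lies above the bands.

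Among 15 other genes of elongation, desaturation and fatty acid activation, 3 rose and 1 fell over both days (median 0.11). The shares over all genes were 14.8% and 16.3%. Mid1ip1, a protein related to Thrsp that promotes the polymerisation of acetyl-CoA carboxylase, rose by 1.34 (SE 0.07, limma adjusted p = 0.00128), and its arrays gave 1.39 and 1.62 at day 5 and 1.05 and 1.30 at day 8. The acyl-CoA synthetase Acsl3 was 0.94 higher and the delta-5 desaturase Fads1 0.27 higher. Hsd17b12, which reduces the keto group in each elongation cycle, fell by 0.53 with nearly equal values on the 4 arrays (-0.51 to -0.55). The other elongases Elovl1, Elovl2, Elovl3 and Elovl5 lay between -0.25 and 0.15 and did not pass. The call of Fads1 was lost without any 1 array, which left 2 that rose, and without day 5 replicate 1 the number that fell was 2.

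Gpam, the entry to triglyceride assembly, did not pass at either time. Its log2 ratios were 0.03 and -0.19 at day 5 and 0.04 and -0.15 at day 8, on both sides of 0. The mean over both days was -0.07 (95% interval -0.24 to 0.10, limma adjusted p = 0.489). Of the 13 other genes of triglyceride assembly tested, 2 rose and 5 fell (median -0.11), against 14.8% and 16.3% of all genes. Lpin1, a phosphatidate phosphatase, had log2 ratios of -1.65 and -1.57 at day 5 and -0.62 and -1.44 at day 8 and fell by 1.32 (SE 0.14, limma adjusted p = 0.00455). Lpin2 (-0.63), the glycerol-3-phosphate dehydrogenase Gpd1 (-0.55), the acyltransferase Agpat3 (-0.50) and Mttp (-0.40), which loads lipid onto apolipoprotein B, fell too. Agpat2 (0.46) and Mogat1 (0.61) rose, and Mogat1 was lost without either array of day 8, with 1 gene left that rose in the case of day 8 replicate 2, as without background subtraction. The final acyltransferases Dgat1 (-0.11) and Dgat2 (-0.02) did not pass.

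At the lipid droplet, where Pnpla3 acts, 6 of 18 other genes rose and 4 fell (median -0.05), against 14.8% and 16.3% of all genes. Pnpla2 (ATGL), the main triglyceride lipase and a relative of Pnpla3, had log2 ratios of -0.89 and -0.92 at day 5 and -0.61 and -0.89 at day 8 and fell by 0.82 (SE 0.07, limma adjusted p = 0.00253). Its inhibitor G0s2 had 1.36 and 1.19 at day 5 and 1.15 and 1.59 at day 8 and rose by 1.32 (SE 0.09, limma adjusted p = 0.00189), and its coactivator Abhd5 fell by 0.26. Of the perilipins, which coat the droplet, Plin5 (1.00) and Plin4 (0.66) rose and Plin2 (-0.46) and Plin3 (-0.46) fell. Fitm1 (0.75), Hilpda (0.30) and the lipase Ces1d (0.75) rose as well. Cidea, Cideb and Cidec, which enlarge droplets, did not pass (-0.23, -0.05 and -0.20). Abhd5 and Hilpda were lost without any 1 array, Fitm1 without either of day 8, and Ces1d without day 5 replicate 1 or day 8 replicate 1. The counts were then 4 that rose without day 5 replicate 1 or day 8 replicate 2, 3 without day 8 replicate 1, and 3 that fell without any 1 array.

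Of 12 genes of fatty acid uptake and of the signals that act on the pathway, 2 rose (the fatty acid transport protein Slc27a5, 0.40, and the insulin receptor substrate Irs1, 0.29) and 1 fell (the AMP kinase subunit Prkaa2, -0.48). The shares over all genes were 14.8% and 16.3%. Cd36 (0.17), Pparg (0.04) and the insulin receptor Insr (-0.01) did not pass. Without day 5 replicate 1 none rose, and without any other array 1 rose. That gene was Slc27a5 without day 5 replicate 2 and Irs1 without day 8 replicate 1. Without day 8 replicate 2 both were lost, and the 1 that rose was a gene that did not pass with all 4 arrays. Prkaa2 was lost without either array of day 8, and 2 fell without day 5 replicate 2. With the processed signals none fell, and with an intensity trend 1 rose. The named genes of all 6 lists that passed over both days kept the sign of their mean in every alternative tried, but with median centring none of them passed except Acsl3.

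**Figure D4:**
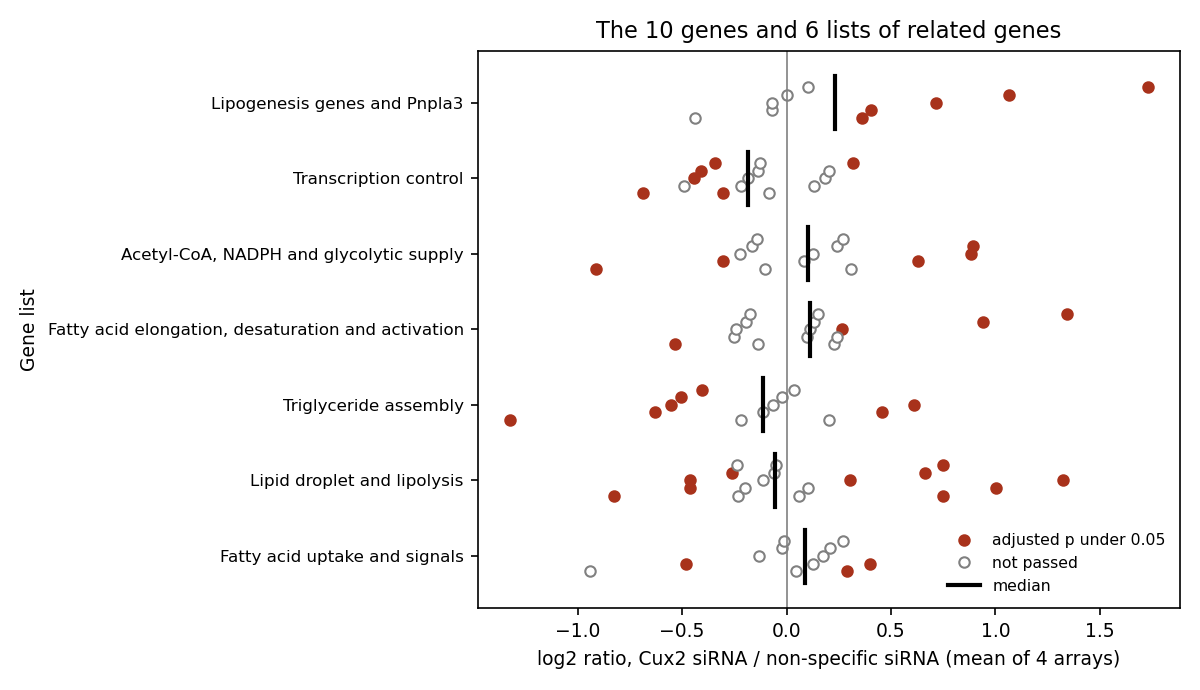
The log2 ratio averaged over the 4 arrays (x axis) for the 10 genes and 6 lists of related genes (rows), 1 point per gene, filled where the limma adjusted p was under 0.05 and open where it was not, with a bar at each list's median. All filled points of the 10 genes are on the right of 0, and each of the 6 lists has filled points on both sides.

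Between the days, none of the 10 genes passed the test of a difference. The change from day 5 to day 8 ran from -1.12 for Scd1 to 0.02 for Gpam, with a median of -0.07, and 9 of the 10 were below 0. Several of the 9 were close to 0, such as Pnpla3 (-0.01), Acly (-0.02) and Thrsp (-0.02). The median of this change over all genes was 0.00, and the share of all genes below 0 was not counted. Over all genes 0 passed in limma for this difference. An unadjusted p under 0.05 was found for 621 of the 25115, among them Elovl6. That is less than the share of 0.05 which this threshold gives when no gene differs. The 95% intervals were -0.71 to 0.22 for Fasn, -0.45 to 0.25 for Srebf1 and -0.29 to 0.25 for Thrsp. Both days share their control pools, so a likeness between them is not independent evidence.

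**Figure D5:**
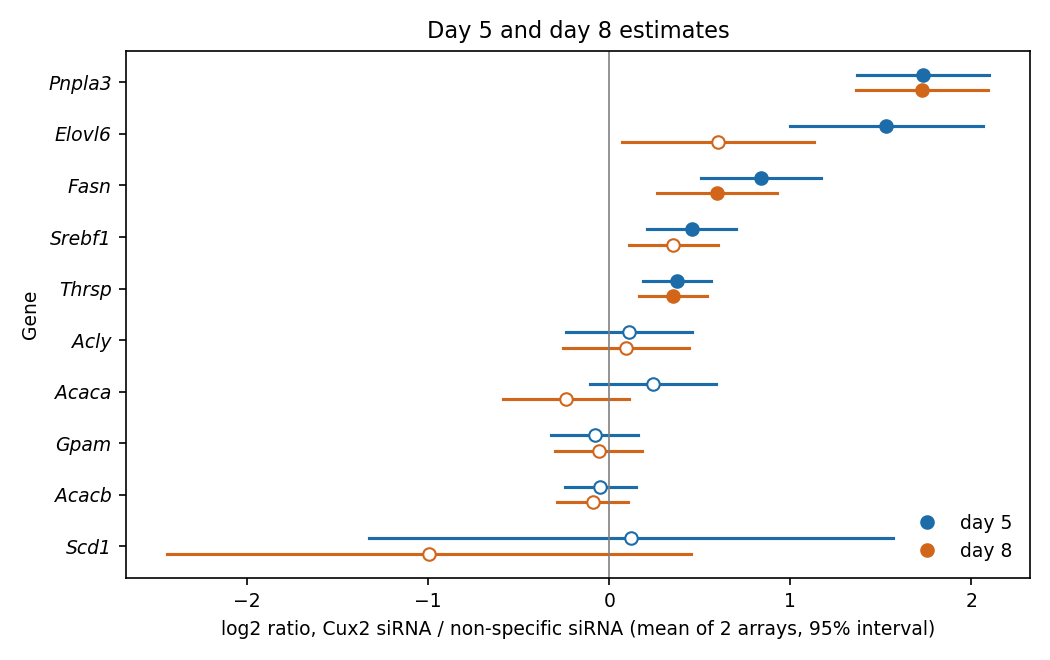
The log2 ratio at day 5 (blue) and day 8 (orange) for each of the 10 genes (rows), with the 95% interval of the limma fit as a line; filled points passed at an adjusted p under 0.05 and open ones did not. The 2 intervals overlap in every gene, and those of Scd1 are the widest.

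The genes whose 4 log2 ratios lay nearest to those of Pnpla3, by the root mean square difference over the 4 arrays among 13846 genes with a symbol, were Colec10 (a collectin; 0.149), Cyp2c55 (a cytochrome P450; 0.175), Tmc7 (a transmembrane channel-like protein; 0.232), Per2 (a component of the circadian clock; 0.236) and Col27a1 (a collagen; 0.259). Their means over both days were 1.78, 1.57, 1.79, 1.65 and 1.60, beside 1.73 for Pnpla3. This is a description of values over 4 arrays only.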

How the data were processed

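Per the file headers, the images were read with Agilent Feature Extraction 10.7.1.1. The deposited intensity values used were each spot's median and local background brightness in both channels; the scanner's processed intensity, background-subtracted and dye-normalized per the file headers, was an alternative. The authors' deposited table holds log10 ratios, equal within 1e-05 to the scanner's log10 ratio for 45018 features on every array after the sign was turned where the treated pool was green; its column medians were 0.

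In limma 3.58.1 (R 4.3.3), background was corrected by normexp (offset 50) and ratios normalized by loess within arrays, and spots were averaged per probe. Probes were named through RefSeq accessions in a GRCm38.p6 gene table (56.8% of 41174). Those well above background in at least 2 of 8 channel readings were kept (31787), and the brightest stood for its gene. One lmFit and eBayes fit of all 4 arrays, 1 coefficient per day, gave every contrast, with 2 residual and 2.76 prior degrees of freedom. The p-values measure the spread between these pools, dye effects included. The fit treats the 4 ratios as independent, although the same 2 control pools served both days. The p-values over both days can therefore be too low and the intervals too narrow. Only the fit was tested on simulated data, in which the noise was drawn independently for each array. The steps before it were not. The array design's build in the headers differs from GRCm38.p6, so coordinates are given for promoter windows only.

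The 10 genes, the lists of related genes and the markers were chosen with earlier results of these data known. All 10 are named with every probe, related genes that passed over both days come first, and the 5 nearest patterns to Pnpla3 are by root mean square difference. Of 90 related genes, 87 were tested; Pgd, Gpat2 and Irs2 were not matched to a probe. One related gene is not reported here by name.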

Additional observations from a re-analysis of the deposited data

Results flagged for a closer look

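Acaca lay above 0 on both arrays of day 5 and below 0 on both of day 8, on its brightest probe, with a change of -0.48 (limma unadjusted p = 0.0548). The fructose kinase Khk (-0.32, unadjusted p = 0.0538), the lipase relative Pnpla5 (-0.46, 0.0476) and the insulin receptor Insr (-0.11, 0.310) moved across 0 in the same sense. The delta-6 desaturase Fads2 (0.33, 0.0433) and the droplet protein Fitm2 (0.33, 0.0260) lay below 0 at day 5 and above 0 at day 8. None of these 6 differences passed over all genes (limma adjusted p = 1.00 for each), and none of the 6 genes passed on either day. With 2 arrays a day, such a split can rest on small values: Fads2 on day 5 replicate 2 and Khk on day 8 replicate 2 were barely below 0. The 6 were picked for this split from the 10 genes and the 87 related genes tested. Their unadjusted p-values come from the same ratios and are no separate evidence. The share of all genes with such a split was not counted.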

How the results depend on the processing

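The fitted means of Pnpla3, Elovl6, Fasn, Srebf1 and Thrsp at day 5, at day 8 and over both stayed above 0 in every alternative tried; what moved was the number past the threshold, and the cause was not tested. Over both days it was 5 of 10, and 4 with the processed signals, the authors' deposited ratios or an intensity trend, and 2 with median centring. At day 5 it was 5, and 3 with a normexp offset of 16, with an intensity trend or with the day 5 arrays alone, 2 without background subtraction, with the processed signals or with the authors' deposited ratios, and 0 with median centring. At day 8 it was 3, and 1 with a normexp offset of 16, the processed signals, the authors' deposited ratios, an intensity trend or the day 8 arrays alone, and 0 with median centring. Leaving out 1 array gave 0 to 3 at day 5, 1 at day 8 and 4 to 5 over both.

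With the replicate number, which is also the dye orientation, as a block, 5 passed at day 5, 6 at day 8 (5 higher, 1 lower) and 6 over both days; Scd1 was then called lower (-0.44, limma adjusted p = 0.00423; day 8 -0.99, 0.00256), and Elovl6 (0.00552) and Srebf1 (0.0142) were called at day 8. Deviations from the day means correlated at 0.50 between same-numbered arrays; with 2 pairs this is no pairing by design.

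Among all genes, 4212, 3589 and 7796 passed at day 5, day 8 and over both days. These counts were 8240, 7450 and 11255 with the block, 5, 3 and 269 with median centring, 2012, 1477 and 6656 with processed signals, 2001 and 1469 for the 2 days with the authors' ratios, and 2106 at day 8 without background subtraction. Without 1 array they ran from 244 to 3558, 137 to 2483 and 3895 to 5452.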
